A study of Mus musculus with 6 samples.

Results

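The genes described here encode the protein subunits of the ribosome, in 2 families: those of the cytosolic ribosome and those of the ribosome inside mitochondria. Members were chosen by gene name on the array. Names of the form Rpl or Rps with a number, and Rpsa, Rplp0, Rplp1 and Rplp2, made the cytosolic family of 84 genes on 189 probes, with the S6 kinases (Rps6k) left out. Names of the form Mrpl or Mrps with a number made the mitochondrial family of 76 genes on 106 probes. Together they are 160 of the 30175 gene names and 295 of the 39429 probes measured.

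RNA came from the anterior pituitary of female mice, from side population cells, which pump out the Hoechst dye and were sorted for it; the cells brightest for Sca1 were excluded. The control mice (-/iDTR) carried an inducible diphtheria toxin receptor without a Cre driver, and the GHCre/iDTR mice carried the receptor together with a growth hormone Cre, so that cells of the growth hormone lineage carry the receptor. The sort did not select on growth hormone. Every mouse was given diphtheria toxin, 4 ng/g at each of 2 daily doses, over 3 or 10 days, so no group is free of toxin. There are 2 control and 2 GHCre arrays from day 3, and 1 of each genotype from day 10. The labels give no age and do not say whether animals were pooled. Where a free-text description and a title disagree, the title, backed by the genotype and treatment fields, set the group.

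Cytosolic ribosomes make nearly all proteins of the cell, and their subunits are encoded in the nucleus, made at high and closely matched levels, and assembled with ribosomal RNA in the nucleolus. Mitochondrial ribosomes make the few respiratory chain proteins that mitochondrial DNA encodes. Their subunits are also nuclear genes, made in the cytosol and imported. Many cytosolic ribosomal protein messages start with a run of pyrimidines, the terminal oligopyrimidine tract, through which mTORC1 signalling controls their translation.

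The starts of 8 members are shown because the choice of members, made by gene name, did not use them. They hold the words whose shares follow, except AAGATGG, which is in none of the 8 stretches. They are from RefSeq (build GRCm38.p6), from 40 bases before to 20 after the first listed start, on the strand of the gene. Capitals mark a run of C and T that begins with C within 5 bases of the start, or 1 of 4 words on either strand: the ETS word CCGGAAG, the NRF1 word GCGCATGC, the YY1 word AAGATGG or the BANP word TCTCGCGA. A run is marked from the C nearest the start that is followed by 4 such bases. Any C and T just before that C stay in small letters.
Rps6: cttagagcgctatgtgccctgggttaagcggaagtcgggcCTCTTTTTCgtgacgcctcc
Rpl14: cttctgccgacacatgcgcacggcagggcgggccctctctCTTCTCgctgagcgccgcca
Rps9: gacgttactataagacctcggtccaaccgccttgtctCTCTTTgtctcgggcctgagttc
Rpl38: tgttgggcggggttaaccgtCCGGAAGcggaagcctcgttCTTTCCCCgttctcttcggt
Rps19: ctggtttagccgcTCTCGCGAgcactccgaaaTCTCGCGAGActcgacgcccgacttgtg
Mrps12: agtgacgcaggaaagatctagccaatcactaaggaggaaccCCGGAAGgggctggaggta
Mrpl17: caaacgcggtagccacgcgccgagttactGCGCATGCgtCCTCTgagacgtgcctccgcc
Mrpl37: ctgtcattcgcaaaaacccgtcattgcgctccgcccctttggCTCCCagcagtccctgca
The stretches are Rps6 at chr4:86857348-86857407 (minus strand), Rpl14 at chr9:120571477-120571536 (plus strand), Rps9 at chr7:3704001-3704060 (plus strand), Rpl38 at chr11:114668540-114668599 (plus strand), Rps19 at chr7:24884552-24884611 (plus strand), Mrps12 at chr7:28741802-28741861 (minus strand), Mrpl17 at chr7:105811068-105811127 (minus strand) and Mrpl37 at chr4:107066847-107066906 (minus strand).

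Rps6 and Rpl14 open on the tract alone, Rpl38 joins it to CCGGAAG, a core recognised by ETS factors such as GABPA, and Rps19 holds TCTCGCGA, a word bound by BANP. Mrps12 holds CCGGAAG and Mrpl17 holds GCGCATGC, the core bound by NRF1. Promoters were listed for 62 of the 84 cytosolic and 67 of the 76 mitochondrial genes, and each word was searched on both strands from 250 bases before to 50 after any listed start. A C followed by 4 bases that are each C or T, beginning within 5 bases of a start, was found in 46.8% of the cytosolic and 25.4% of the mitochondrial genes, beside 21.2% of all 27025 genes with a listed promoter. CCGGAAG was found in 40.3% and 35.8%, beside 9.93% of all genes. No test was made of these shares. AAGATGG, a core bound by YY1, was found in 16.1% and 19.4%, beside 7.28%. GCGCATGC was found in 4.84% and 11.9%, beside 3.05%. TCTCGCGA was found in 16.1% of the cytosolic genes, in 0 of 67 mitochondrial genes and in 1.13% of all genes. CCGGAAG can share its last letters with the start of AAGATGG, and its other strand, CTTCCGG, can add to a pyrimidine run. A match is a description of the letters, not of a bound site.

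A level is the log2 processed signal after subtraction of that array's log2 75th percentile, and a difference is GHCre minus control on this log2 scale, with its standard error from the fit. The 75th percentile signal lay between 186 and 299, the lower end being replicate 1 of the 3 day controls, and from 53.8% to 65.7% of probes were well above background. No probe was saturated. Correlations between arrays over genes lay between 0.866 and 0.916. A gene was tested where its brightest probe was well above background on at least 2 arrays. This kept 82 cytosolic genes and all 76 mitochondrial genes among 20951 genes. Rpl3l and Rpl39l, paralogs known from striated muscle and from testis in that order, were not well above background on any array. Of the defining pituitary stem cell markers, Sox2 and Prrx2 were not well above background on any array and Cdh1 only on 1 of them, while Sox9, S100b, Gfra2, Cd9 and Abcg2 were on all 6. The hormone genes Gh, Prl and Pomc were above background on all 6 arrays.

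After 3 days, under percentile scaling, the cytosolic family was lower in GHCre by a little in nearly every gene. The mitochondrial family was spread to both sides. Of the 82 cytosolic genes, 74 were lower in GHCre and 8 higher, with a median difference of -0.22 and quartiles of -0.31 and -0.12. Of the 76 mitochondrial genes, 46 were lower and 30 higher, with the same median of -0.22 but quartiles of -0.63 and 0.37. Over all genes tested, 52.0% were lower and the median was -0.04. No gene of either family passed an adjusted p of 0.05 with limma, nor did any of the 20951 genes (0%). In data simulated at this design, genes given large known differences did not pass that threshold either, so a count of 0 here says little. Those data took their spread from all genes, whatever the level, and so do not match the narrower spread of the cytosolic family. At an unadjusted p under 0.05, 0 cytosolic and 4 mitochondrial genes passed, where 6.59% of all genes did. For a single gene, limma draws the standard error in part from the spread of all genes. In the cytosolic family it was at least 0.39, above the size of the family's median, but it is not an error of that median. With an intensity trend in limma's prior, the lowest was 0.13 and the median 0.20.

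**Figure D1:**
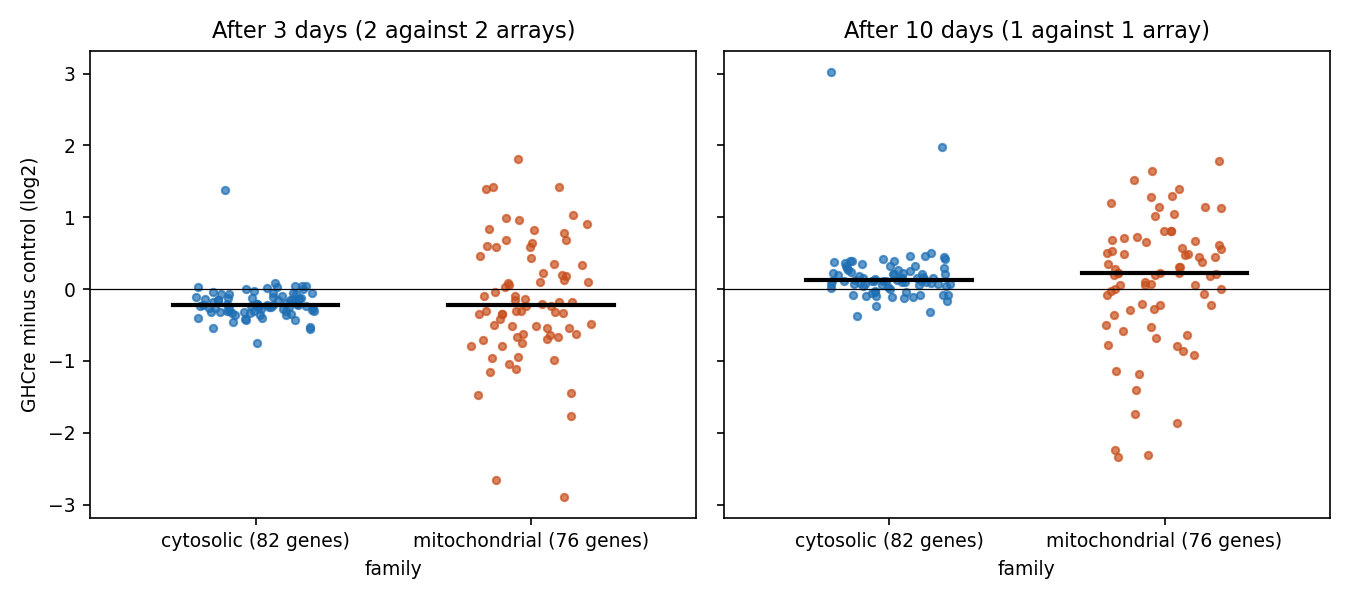
Each point is 1 gene, placed by its GHCre minus control difference (log2, vertical axis) in its family (horizontal axis), after 3 days (left, 2 arrays against 2) and 10 days (right, 1 array against 1); horizontal bars are family medians and horizontal jitter has no meaning. Apart from Rpl7l1 and Rps4y2, the cytosolic points lie in a narrow band that is mostly below 0 after 3 days and mostly above 0 after 10 days, around medians of -0.22 and 0.12, and the mitochondrial points span both signs at both times.

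By subunit, the 3 day cytosolic median was -0.22 over 49 genes of the large subunit, 43 of them lower, and -0.23 over 33 genes of the small subunit, 31 of them lower. Both GHCre arrays lay below both controls in 49 cytosolic genes and above both in 2, which were Rpl19 and Rpl7l1, beside 21.3% and 16.7% of all genes. Genes whose listed start carries the pyrimidine run (29) and those without it (31) had medians of -0.22 and -0.22. The split rests on where the listed start lies. In the stretches around the first listed starts of Rpl4, Rps25 and Rps12, a run of C and T lies outside the window searched. A gene counted as without the run may therefore still carry the tract, and the 2 medians cannot show whether the tract matters.

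Among single cytosolic genes, Rpl14, a protein of the large subunit, stood after 3 days at 5.50 and 5.15 (controls) and at 4.73 and 4.79 (GHCre). The groups did not overlap, and the difference was -0.56 ± 0.41 (limma, adjusted p = 0.867). The part of its pyrimidine run that follows the listed start is the CTTCTC shown above, and more C and T lie just before it. Rps3a, a small subunit protein whose current symbol is Rps3a1, had 6.57 and 6.60 in controls and 5.88 and 6.21 in the GHCre arrays, a difference of -0.54 ± 0.41. Rps9, a small subunit protein, had 7.90 and 7.55 against 7.07 and 7.32, a difference of -0.53 ± 0.42. In all 3 genes the controls were the higher pair, and a single control, replicate 1, was highest in Rpl14 and Rps9.

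Rps6, the substrate of the S6 kinases, had 4.99 and 5.01 in controls and 4.40 and 4.79 in the GHCre arrays (-0.40 ± 0.42). Rplp0, the base of the stalk that recruits elongation factors, had 5.06 and 4.99 against 4.79 and 4.82 (-0.21 ± 0.40). Rpl10, which joins the large subunit last, had 6.94 and 7.16 against 6.52 and 6.76 (-0.41 ± 0.41). The GHCre arrays were lower without overlap in these 3. Rpl5 and Rpl11, which with 5S ribosomal RNA can bind Mdm2, differed by -0.23 ± 0.39 and -0.18 ± 0.39. Rpsa, also known as a laminin receptor, had 6.46 and 5.98 against 6.08 and 6.11, so its groups overlapped. Of the few higher genes, Rpl19 had 3.73 and 3.64 against 3.76 and 3.78, Rpl12 differed by 0.04 ± 0.40 and Rps16 by 0.04 ± 0.40. The groups overlapped in Rpl12 and Rps16 and not in Rpl19, and all 3 differences are smaller than their standard errors.

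**Figure D2:**
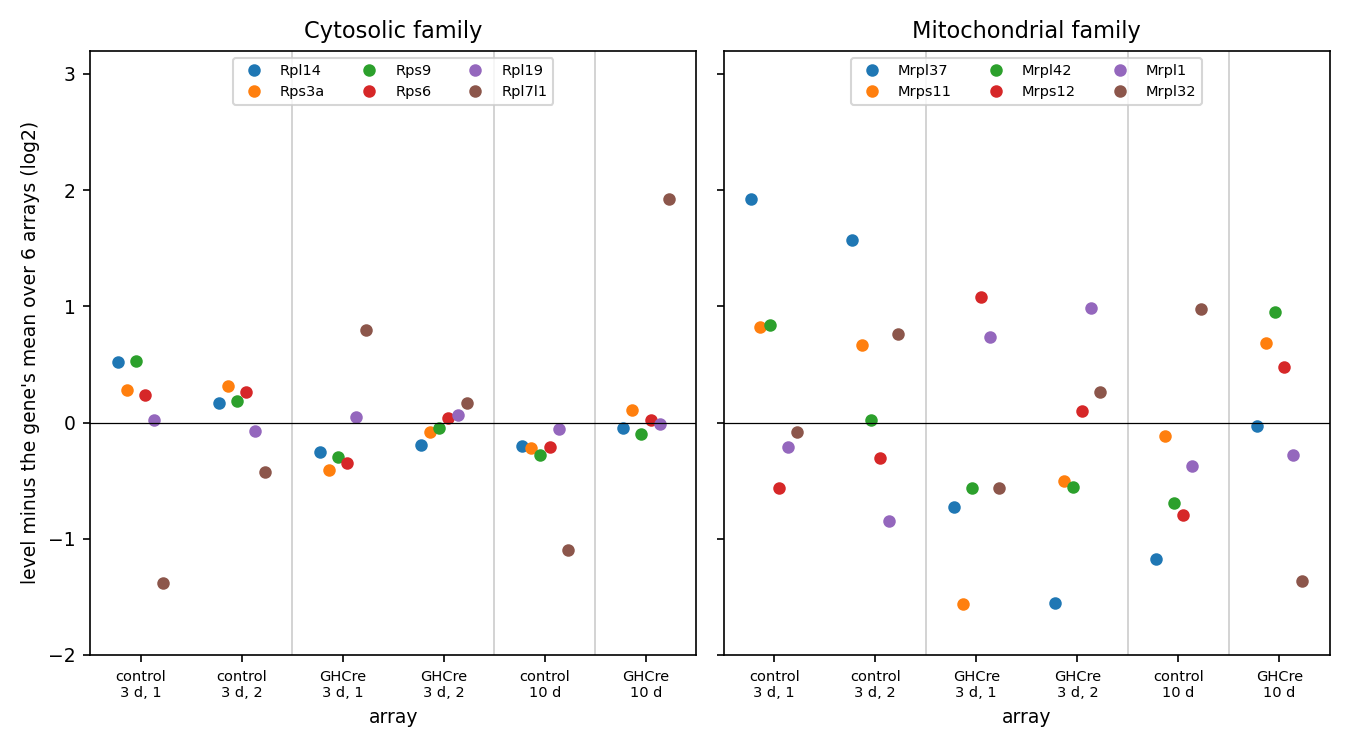
Points are levels of single genes minus that gene's mean over the 6 arrays (log2, vertical axis) on each array (horizontal axis, vertical lines divide the groups), for 6 cytosolic genes (left) and 6 mitochondrial genes (right) on 1 scale. The cytosolic genes other than Rpl7l1 stay close to 0, with SDs over the arrays of 0.06 (Rpl19) to 0.31 (Rps9). The mitochondrial genes spread more widely, led by Mrpl37 with an SD of 1.45.

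In the mitochondrial family single genes differed by far more, in both directions. Mrpl37, a large subunit protein, had 0.93 and 0.58 in the 3 day controls and -1.72 and -2.54 in the GHCre arrays, with 1 probe on chromosome 4 from 106733238 to 106734539 (mm9). The difference was -2.89 ± 0.50, or 7.41-fold (limma, unadjusted p = 0.00451, adjusted p = 0.687). Both slides that hold a pair of genotypes gave it, at -2.65 and -3.13. The gene was named for low p on these same arrays, so the slides are no separate check. The lone 10 day control, at -2.16, was as low as the 3 day GHCre arrays, so the high level was seen in the 3 day controls only.

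Mrps11, a small subunit protein, had 0.45 and 0.30 in the 3 day controls and -1.92 and -0.87 in the GHCre arrays (-1.77 ± 0.55, limma adjusted p = 0.737). Its groups did not overlap. It shares a head to head start with Mrpl46, 42 bases apart in RefSeq, the 1 such pair within 1 kb among the members. Mrpl46, a large subunit protein, had -0.61 and -2.20 in the 3 day controls and -0.98 and -2.91 in the GHCre arrays, so its groups overlapped. Mrps16, a small subunit protein, had 0.16 and -0.24 against -1.06 and -0.93 (-0.95 ± 0.42), and Mrpl42 had 2.91 and 2.10 against 1.51 and 1.51 (-0.99 ± 0.49). Neither pair overlapped.

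Other mitochondrial genes were higher in GHCre after 3 days. Mrpl1, which binds ribosomal RNA at the side stalk, had -2.55 and -3.19 in controls and -1.61 and -1.36 in the GHCre arrays (1.39 ± 0.46, limma adjusted p = 0.752). Mrpl40 had -3.37 and -3.20 against -1.41 and -2.31 (1.42 ± 0.51). Mrps12, the homologue of the bacterial protein where streptomycin resistance arises, had 2.45 and 2.70 against 4.10 and 3.11 (1.03 ± 0.53). These 3 genes showed no overlap between genotypes, which naming genes by low p favours. Mrps18a differed by 0.84 ± 0.41, and Mrpl12, which also binds the mitochondrial RNA polymerase, by 0.90 ± 0.50.

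Counted over the family, 13 mitochondrial genes differed by more than 1 after 3 days, 8 lower and 5 higher, and 1 cytosolic gene did, where 26.1% of all genes did. Both GHCre arrays lay below both controls in 15 mitochondrial genes and above both in 14 of the 76, near the 21.3% and 16.7% of all genes. The large subunit (47 genes) had a median of -0.10 and the small subunit (29 genes) one of -0.31, with 26 and 20 genes lower. The counts by size were cut after values were seen.

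The cytosolic shift depended on how arrays were background corrected and scaled. With normexp background correction and the same percentile scaling, the cytosolic median was -0.11 with 60 of 82 genes lower. The median of all genes was then -0.15 with 62.8% lower, so the cytosolic median lay above that of all genes. With quantile normalization, 52 of the 82 cytosolic genes were lower instead of 74, with a median of -0.09, while the mitochondrial median stayed at -0.21 with 47 of 76 lower. Over all genes 52.0% were then lower, with a median of -0.03. Under that scaling the cytosolic median lay 0.12 above the mitochondrial one, where the percentile scaling gave a gap of 0.00. Bright genes at large moved with the scaling too. The 727 other genes whose mean level lies between the quartiles of the cytosolic family, 4.29 and 6.11, had a 3 day median of -0.15 with 68.0% lower under percentile scaling and -0.03 under quantile normalization. This range was chosen after values were seen, and the part of signal level in the cytosolic median was not tested.

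**Figure D3:**
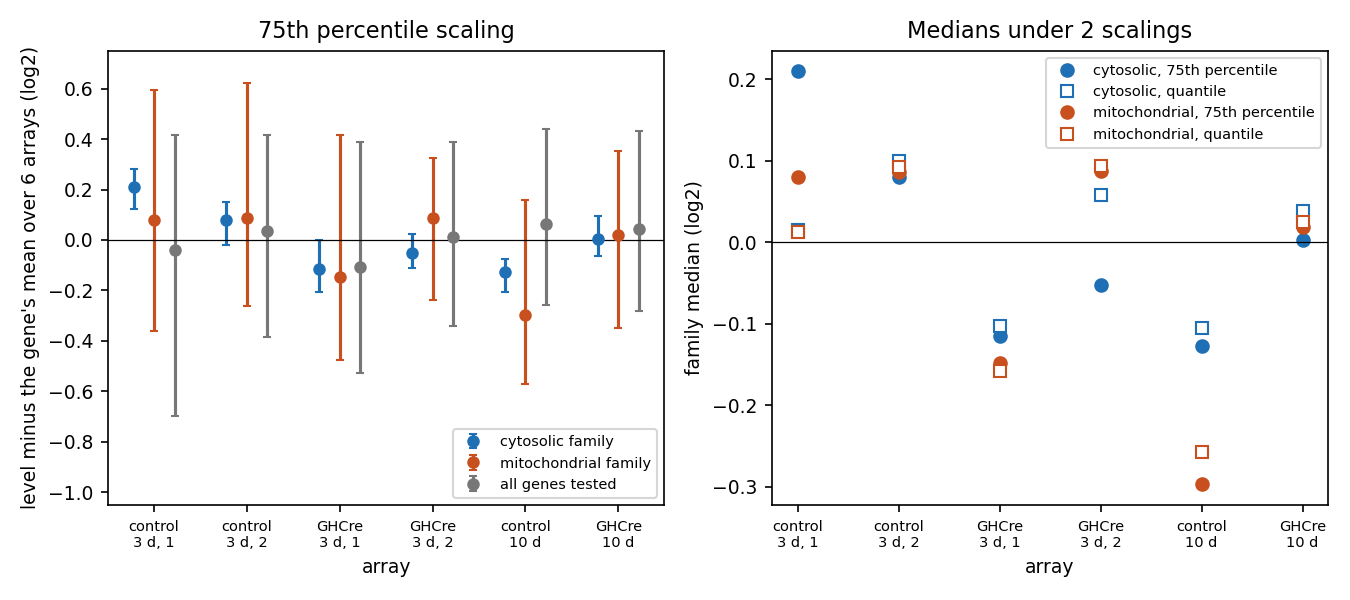
Left, points are medians and bars quartiles over genes of the level minus each gene's mean (log2) on each array under percentile scaling, for the cytosolic family, the mitochondrial family and all genes tested. Right, the family medians under percentile scaling (filled) and quantile normalization (open); the cytosolic median of control replicate 1 of 3 days moves from 0.21 to 0.02 between them, and both families have their lowest median on the 10 day control under both.

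Array by array, the cytosolic median under percentile scaling was 0.21 and 0.08 in the 3 day controls, -0.11 and -0.05 in the 3 day GHCre arrays, -0.13 in the 10 day control and 0.00 in the 10 day GHCre array. On control replicate 1, which had the lowest overall signal, 75 of 82 cytosolic genes stood above their own mean, and on the 10 day control only 9 did. Quantile normalization brought the 3 day values to 0.02 and 0.10 in controls and -0.10 and 0.06 in the GHCre arrays, so the genotypes overlapped. The mitochondrial median was 0.08 and 0.09 in the 3 day controls and -0.15 and 0.09 in the GHCre arrays under percentile scaling, which overlap as well. It was -0.30 in the 10 day control and 0.02 in the 10 day GHCre array.

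Slides 1 and 3 each hold 1 array of either genotype from day 3. Within slide 1 the cytosolic median was -0.28 with 79 of 82 genes lower, and within slide 3 it was -0.13 with 62 lower. The mitochondrial medians were -0.27 and -0.19, with 44 and 46 of 76 lower. Over all 20951 genes the medians were -0.06 and -0.04, with 10983 and 11012 lower. When each 3 day array was left out in turn, the cytosolic median ran from -0.27 to -0.16 and the mitochondrial one from -0.27 to -0.13, the last without GHCre replicate 1.

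After 10 days, with 1 array a genotype, the families stood on the other side. Of the cytosolic genes 64 of 82 were higher in GHCre, with a median of 0.12, and of the mitochondrial genes 48 of 76, with a median of 0.22, where 49.9% of all genes were higher and the median was -0.00. With quantile normalization 63 cytosolic genes were higher, with a median of 0.14, and 48 mitochondrial genes, with a median of 0.30. Under that scaling 51.2% of all genes were higher and their median was 0.02. These differences have no replicate check, and their standard errors borrow the spread of the 3 day arrays. No other array shares a slide with the 10 day control, and at 10 days genotype and slide cannot be told apart. By limma 0 members and 0% of all genes passed an adjusted p of 0.05. At the unadjusted 0.05, 1 cytosolic and 1 mitochondrial gene passed, where 3.01% of all genes did. Of the 74 cytosolic genes lower after 3 days, 56 were higher after 10 days, and of the 46 mitochondrial ones 29 were.

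Among the usual cytosolic proteins the 10 day differences were small. The lowest was Rpl22, a large subunit protein also studied in T cell development, at 3.42 in the control and 3.04 in GHCre. Rpl36a had 5.35 and 5.85, Rpl26, a large subunit protein that can bind p53 messages, had 4.28 and 4.74, and Rplp0 had 4.48 and 4.90. Rpl13a, Rps25 and Rps3 differed by -0.24, -0.17 and -0.32. The large subunit had a median of 0.12 and the small subunit one of 0.15, with 37 of 49 and 27 of 33 genes higher.

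Mitochondrial genes again reached further on both sides. In size, 20 of them differed by more than 1, 12 higher and 8 lower, and 2 cytosolic genes did, where 26.6% of all genes did. Mrpl42 stood at 1.37 in the control and 3.02 in GHCre, and Mrpl54 at 0.99 and 2.38. Mrps12 had 2.21 and 3.49 and Mrps18a -0.81 and 0.32, so these 2 were higher in GHCre at both times. Mrpl32, a large subunit protein whose maturation by the m-AAA protease is needed for ribosome assembly, had 0.09 and -2.25. Mrpl34 had 1.00 and -0.41, Mrpl36 had 0.81 and -0.33, and Mrpl55 had 2.65 and 0.41, the last with 2.65 and 0.27 in the 3 day controls. That spread between replicates of Mrpl55 is as wide as its 10 day difference.

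The change of the genotype difference from 3 to 10 days was upward in 77 of 82 cytosolic genes, with a median of 0.35, and in 45 of 76 mitochondrial genes, with a median of 0.26, where 51.4% of all genes went up and the median was 0.03. With quantile normalization the cytosolic median was 0.21 and the count 63, where 51.9% of all genes went up and the median was 0.04. No member passed an adjusted p of 0.05 for this difference, nor did any gene (0%), and at the unadjusted 0.05 there were 0 cytosolic and 2 mitochondrial genes, where 3.95% of all genes passed. The 2 were Mrpl37 (4.03 ± 0.87) and Mrpl42 (2.64 ± 0.84). Among the other named mitochondrial genes Mrps11 and Mrps28 had 2.58 ± 0.94 and 1.98 ± 1.03, and Mrpl40, Mrpl36 and Mrpl32 had -2.20 ± 0.88, -1.97 ± 0.89 and -1.85 ± 0.99. In the cytosolic family Rps3a, Rpl26 and Rpl14 had 0.86 ± 0.71, 0.78 ± 0.69 and 0.72 ± 0.71, while Rpl22, Rpl19, Rps20 and Rpl7 had -0.20 ± 0.71, -0.05 ± 0.68, -0.02 ± 0.72 and -0.01 ± 0.73.

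Set by genotype, the 10 day control against the 3 day controls gave a cytosolic median of -0.26 and a mitochondrial one of -0.36, where the median of all genes was 0.09. In GHCre the medians were 0.07 and 0.06, where all genes had 0.11. The first of these comparisons shares the 3 day controls with the genotype comparison of 3 days and the 10 day control with that of 10 days. With quantile normalization the control medians were -0.13 and -0.27, where the median of all genes was 0.00. The mitochondrial median in GHCre turned to -0.07 with the slide as a block and ran from -0.11 to 0.06 when each 3 day array was left out.

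The families also stood apart in spread over the 6 arrays, which is described here without a test. The median SD of a cytosolic gene was 0.17 and that of a mitochondrial gene 0.57, beside 0.65 over all genes tested. In the cytosolic family 80 of 82 genes had an SD under 0.35, and in the mitochondrial family 7 of 76 did, a limit chosen after values were seen. Between replicates, the 2 control arrays of 3 days differed by a median of 0.15 in the cytosolic and 0.73 in the mitochondrial family, and the GHCre pair by 0.14 and 0.61. Signal moved with this spread. The cytosolic probes had a median level of 5.48 and the mitochondrial ones 0.65, and the 727 other genes in the cytosolic range had a median SD of 0.24, against 0.59 for 5401 other genes in the quartile range of the mitochondrial family.

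**Figure D4:**
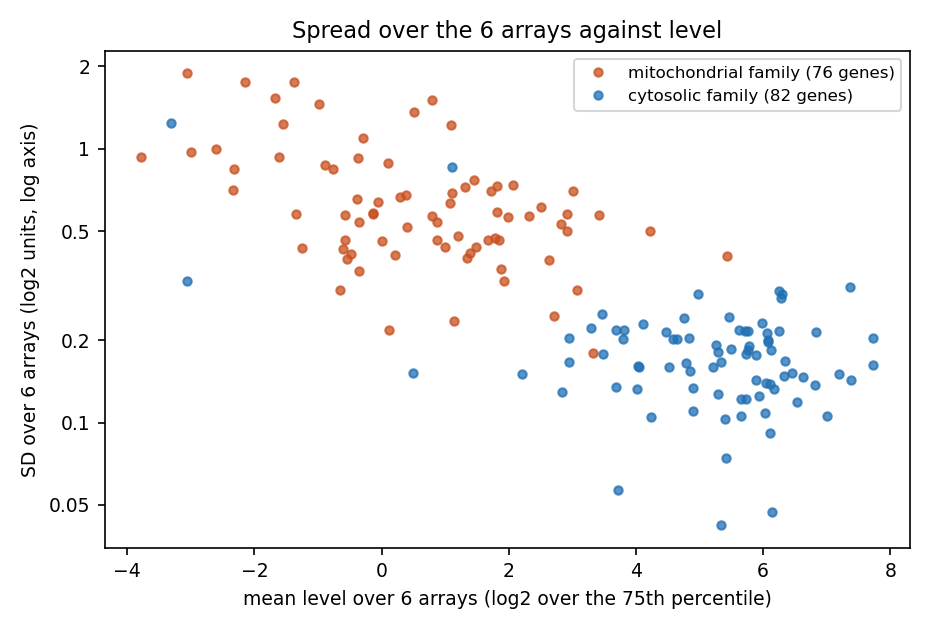
Each point is 1 gene, placed by its mean level over the 6 arrays (log2 over the array's 75th percentile, horizontal axis) and its SD over them (log2 units on a log axis, vertical). Cytosolic genes gather at high signal and low SD, with a median of 0.17, and mitochondrial genes at lower signal and higher SD, with a median of 0.57.

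Rpl39, a small protein of the exit tunnel, was the steadiest, at 5.36 and 5.42 in the 3 day controls, 5.34 and 5.30 in the 3 day GHCre arrays, and 5.32 and 5.34 in the control and GHCre arrays of 10 days (SD 0.04). Rps27, Rpl19 and Rpl30 had SDs of 0.05, 0.06 and 0.07. In the mitochondrial family Mrps33, Mrpl47, Mrpl27 and Mrpl52 had the lowest, from 0.18 to 0.24, and Mrps33 stood at 3.47 and 3.46 in the 3 day controls, 3.09 and 3.48 in the GHCre arrays, and 3.12 and 3.34 after 10 days. The widest were Mrpl35 (1.88), Mrpl15 (1.75), Mrps5 (1.75) and Mrps27 (1.53). Mrps27, a small subunit protein with RNA binding repeats, had -3.51 and 0.54 in the 2 controls of 3 days, so the replicates lay further apart than the 10 day arrays. Mrpl35, Mrpl15 and Mrps5 were each not well above background on 1 array. Of the usual cytosolic genes Rps9 varied most (0.31), behind the paralogs Rpl7l1 (1.24), Rps4y2 (0.85) and Rpl10l (0.33).

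Those paralogs stood apart from the family they are named for. Rpl7l1, an Rpl7-like protein that takes part in large subunit maturation, had -4.70 and -3.74 in the 3 day controls, -2.52 and -3.15 in the GHCre arrays, -4.41 in the 10 day control and -1.39 in the 10 day GHCre array. It was not well above background on control replicate 1 of 3 days, 1 of the 2 controls, so the 3 day difference of 1.38 ± 0.56 (limma, adjusted p = 0.782) rests in part on a signal at background. After 10 days the control was not well above background either, and Rpl7l1 was at least 5.84-fold higher in GHCre, taking the lowest signal above background for that array. Rps4y2, now Rps4l and a transcribed pseudogene in RefSeq, had 1.73 and 1.26 in the 3 day controls, 1.46 and 0.03 in the GHCre arrays, and 0.10 and 2.07 after 10 days. Rpl10l, a retrogene known from testis, was near background, at -3.31 and -2.75 against -3.43 and -3.32. Its sequence is close to that of Rpl10, whose probe stood far higher, at 6.52 to 7.16 after 3 days. Whether the weak Rpl10l signal comes in part from Rpl10 was not tested. Rps27l, a p53 target, had 0.53 and 0.43 against 0.37 and 0.30, and Rpl22l1, the partner paralog of Rpl22, 2.43 and 2.12 against 2.30 and 2.02. Rps27l had no overlap after 3 days and Rpl22l1 did. Many cytosolic genes also have processed copies in the genome, which these probes could detect.

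Many genes have several probes. Of 58 cytosolic genes with several probes above background, 46 had 1 sign over all their probes after 3 days and 12 did not. Of 25 mitochondrial genes 13 did and 12 did not. Rpl21 had -0.37 on its bright probe and 0.84 on another above background on 5 arrays. Mrpl41 had 0.78 and -0.57, Mrps2 had 0.96 and -0.56, Mrps18b had -0.21, -0.30 and 0.83, and Mrpl47 had -0.23, -0.77 and 0.75 on its 3 probes above background on at least 2 arrays. In these 5 genes the direction after 3 days depends on the probe.

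Genes around the ribosome were set beside the families from lists. Genes named from each list are those of lowest p after 3 days, a choice that favours genes whose groups do not overlap. Fau and Rack1, cytosolic ribosomal proteins whose names fall outside the rule, were lower after 3 days (-0.25 and -0.12) and higher after 10 (0.24 and 0.39), but they turned to 0.13 and 0.02 after 3 days with quantile normalization. Of the 7 mitochondrial ones 5 were higher after 3 days, with a median of 0.03. Mrpl58, which the array lists under its older name Ict1, a peptidyl-tRNA hydrolase built into the large subunit, had 2.99 and 2.88 in controls and 1.57 and 1.29 in the GHCre arrays, without overlap (-1.51 ± 0.41, limma adjusted p = 0.706). Ptcd3 and Dap3, both small subunit proteins, differed by -1.49 ± 0.60 and 1.00 ± 0.43.

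Of 58 ribosome biogenesis genes 32 were higher after 3 days and 42 after 10, with medians of 0.15 and 0.44, and 0 passed an adjusted p of 0.05. Grwd1, a chaperone of ribosomal proteins, had -1.26 and -0.88 in the 3 day controls and 0.54 and 0.93 in the GHCre arrays. Rrs1, an assembly factor of the large subunit, had -1.93 and -1.49 against 0.78 and -0.17, and Nop2, a ribosomal RNA methyltransferase, -1.29 and -1.36 against -0.21 and 0.22. The GHCre arrays were higher without overlap in these 3, with differences of 1.81 ± 0.44, 2.02 ± 0.54 and 1.33 ± 0.42 (limma, adjusted p from 0.688 to 0.739). The lack of overlap is no separate evidence, since these 3 were named for lowest p, and 16.7% of all genes were higher without overlap. At an unadjusted limma p under 0.05, 3 of the 58 were higher after 3 days, where 829 of 20951 genes were. RNA polymerase I genes (14) had medians of 0.30 and 0.32, and translation elongation and initiation genes (37) had 0.05 and 0.19. Among the latter Eif4b, a cofactor of the cap-binding helicase, had 4.55 and 4.75 against 3.80 and 3.82 after 3 days.

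In mTORC1 and S6 kinase signalling, 14 of 22 genes were higher after 3 days, with a median of 0.29, and 10 after 10 days, with a median of -0.01. Rps6kb1, the main S6 kinase, had -0.48 and -0.76 in the 3 day controls and 0.76 and 1.08 in the GHCre arrays (1.54 ± 0.42, limma adjusted p = 0.706). On the mitochondrial side, translation factors (20 genes) had medians of 0.08 and 0.23, tRNA synthetases (16 genes) -0.31 and 0.04, and transcription and biogenesis genes (15 genes) 0.29 and 0.37. Mtif3, a mitochondrial initiation factor, had -1.37 and -0.67 in controls and -2.78 and -2.60 in the GHCre arrays, and Fars2, a phenylalanine tRNA synthetase, had -1.37 and -0.70 against 1.31 and 0.71. No gene of these lists passed an adjusted p of 0.05 in any genotype comparison.

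Marker lists of other cells also differed between these arrays. All 7 fibroblast and pericyte markers were higher in GHCre after 3 days, with a median of 0.68 and a summed level between 7.08 and 8.04 over the 6 arrays, and 2 of 7 were higher after 10 days. Endothelial markers were higher in 4 of 5 (median 0.44, summed level 2.14 to 2.75), macrophage and lymphocyte markers in 4 of 7 (0.25, 7.30 to 7.84) and red blood cell markers in 3 of 3 (1.26, -0.54 to 2.22). Hormone cell markers were higher in 2 of 7 (-0.60, 10.37 to 11.16) and stem cell markers in 7 of 8 (0.50, 4.43 to 5.61). After 10 days the medians were -0.28 for fibroblast and pericyte, -0.03 for endothelial and 0.04 for macrophage and lymphocyte markers. Red blood cell, hormone cell and stem cell markers had medians of -2.24, -3.70 and -0.32. Medians and sums did not always move together. The summed hormone cell level was 10.78 in the 10 day control and 10.84 in GHCre, although 5 of 7 markers were lower. The summed macrophage and lymphocyte level was 7.84 and 7.60 in the 3 day controls and 7.30 and 7.33 in the GHCre arrays. Fshb was not well above background on any array, and Tek only on 1. Their part in the ribosomal protein values was not tested. In a bulk sort, fewer cells of a type and less RNA per cell cannot be told apart.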

How the data were processed

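Per the file headers, Agilent Feature Extraction 10.7.3.1 read the 6 one-colour arrays, and the processed signal used is a background-corrected intensity. The deposited series table holds log2 values; set against the scanner files, they correlated at 0.9999 or more with quantile normalized signal for 38017 probes, in the same direction and scale. Positions are those of mm9, per the file headers.

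Replicate spots were averaged as log2 intensity, with flagged spots left out. Each array was scaled to its 75th percentile. A gene was its brightest probe, tested if well above background on at least 2 arrays. With limma 3.58.1 (R 4.3.3), 4 group means were estimated from the 6 arrays (2 residual degrees of freedom, all from 3 day arrays), with Benjamini-Hochberg adjustment over 20951 genes and a threshold of 0.05, after a check on simulated data, in which directions were recovered but no gene passed the adjusted threshold. The p-values measure only the spread between these samples, and the number of arrays limits precision.

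Named genes are, for each genotype comparison and family, up to 4 genes of lowest p in each direction, the 4 of largest and smallest SD, up to 6 whose probes disagree by over 1, a fixed set with paralogs, and up to 3 of lowest p per other list; Mrpl46, the sequences of Rpl38, Rps19 and Mrpl17, and the marker genes named as detected or not were added after values were seen, and some genes the rule takes in are not reported here. The members and lists were chosen with earlier results of these data known. Same-numbered 3 day arrays share a slide, but their deviations from group means correlated at only 0.087. Alternatives were quantile normalization, median scaling, normexp with an offset of 50, the series table, other filters and probe rules, an intensity trend, replicate or slide blocks, and single arrays or copied genes left out. Figures used matplotlib 3.10.9.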

Additional observations from a re-analysis of the deposited data

Results flagged for a closer look

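The genotype difference of both families had one sign in each slide after 3 days and the other sign after 10 days. The cytosolic median was -0.28 within slide 1 and -0.13 within slide 3 after 3 days, and 0.12 after 10 days. The mitochondrial median was -0.27 and -0.19 within these slides, and 0.22 after 10 days. Over all genes the medians were -0.06 and -0.04 within these slides, and -0.00 after 10 days. All these values are under percentile scaling. The difference between the time points was not tested for the medians, the 10 day values rest on 1 array a genotype, and no single member passed limma's test of that difference.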

How the results depend on the processing

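No gene passed an adjusted p of 0.05 in any of the 5 comparisons under any alternative. The 15 family medians and gaps between them were set against the SD of array medians within the 3 day groups (0.07 cytosolic, 0.12 mitochondrial, 0.11 for the gap). Of 246 values 31 moved by more, but not all of the 246 could move. The intensity trend changes standard errors only, and leaving out a 3 day array cannot change the 10 day genotype medians. The share that moved is therefore no measure of stability. After 3 days the cytosolic median was -0.088 with quantile normalization, -0.11 with normexp, -0.072 with normexp and quantile normalization and -0.14 with the series table, and its gap to the mitochondrial median was 0.12, 0.11 and 0.17 under the first 3 of these; single arrays left out gave gaps from -0.12 to 0.036. The 10 day cytosolic median was 0.21 with median scaling. For the difference between the times, the cytosolic median was 0.21 with quantile normalization, 0.45 with median scaling, 0.23 with normexp, 0.20 with normexp and quantile normalization and 0.23 with the series table, from 0.29 to 0.43 with arrays left out; the mitochondrial one was 0.11 with every probe as a feature and from 0.12 (without GHCre replicate 2) to 0.32, and the gap ran from -0.033 to 0.31. For 10 against 3 days in controls, the cytosolic median was -0.13 with quantile normalization, -0.40 with median scaling, -0.12 with normexp and quantile normalization and -0.15 with the series table, from -0.32 to -0.19 with arrays left out; the mitochondrial one was -0.49 with median scaling and -0.24 with normexp and quantile normalization. In GHCre the slide block gave a mitochondrial median of -0.075 and a gap of 0.17, and arrays left out gave -0.11 to 0.059 and 0.015 to 0.17. The slide block could not be fitted for the comparisons that use the 10 day control, alone on its slide. Normexp moved the 3 day median of all genes from -0.04 to -0.15, below the cytosolic median of -0.11.

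With the replicate block, which is also the slide block after 3 days, the 3 day medians were -0.22 and -0.22, and 0 genes passed; the 2 pairs share a slide but no clear deviation. With an intensity trend in the prior, the median standard error of cytosolic genes was 0.20 in place of 0.40, and 0 genes passed the adjusted threshold. The lowest unadjusted p of the 82 cytosolic genes was then 0.024, in a gene not named here. For Rps3a, Rps9 and Rpl14 the unadjusted p was 0.031, 0.034 and 0.049 (limma with the trend, adjusted p from 0.635 to 0.648). These 3 had been named for low p in the main fit. Their values are among the lowest of the 82 and are not set beside the share of all genes.

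Of 88 gene differences followed, 70 kept their direction. Most of these genes were named for low p in the same data, and the intensity trend could not turn any of them. With the mean of all probes Mrps18b turned to 0.10, Rpl21 to 0.19 and Polg2 to 0.85 after 3 days, Rpl13a to 0.24 and Rps25 to 0.72 after 10 days, and the time difference of Rpl22 to 0.38. With median scaling the time differences of Rpl19, Rpl7 and Rps20 turned to 0.054, 0.091 and 0.079. After 3 days normexp turned Mrpl41 to -0.41 and Rpsa to 0.027, normexp and quantile normalization turned them to -0.32 and 0.13 and Fau to 0.18, quantile normalization turned Rpsa to 0.039, Fau to 0.13 and Rack1 to 0.020, and the series table turned Fau to 0.12 and Rack1 to 0.0012. With 1 array of 3 days left out, the 3 day difference ran from -0.89 to 0.47 in Mrps18b, -0.14 to 2.06 in Mrps2, -0.083 to 0.17 in Rpl12, -0.27 to 0.040 in Rpl22l1, -0.052 to 0.14 in Rps16, -0.36 to 0.12 in Rpsa and -0.024 to 3.23 in Taf1b, and the time difference from -0.18 to 0.15 in Rpl7 and -0.20 to 0.15 in Rps20. The cause was not tested.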
